A study of Homo sapiens with 27 samples.

Results

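SW48 is an established human colorectal cancer cell line, and the comparison described here sets SW48 cells that had outlived repeated killing by antibody-armed immune cells against the SW48 cells they came from. It takes the 3 arrays labelled SW48 Resistant minus the 3 labelled SW48 Parental, which are 6 of the 27 arrays of the study, and covers all 17687 named genes on them. Parental cells were the starting line, grown from a single clone. Resistant cells had come through 20 cycles of co-culture with 1 µg/ml cetuximab and NK-CD16 cells, a natural killer effector bearing the Fc receptor CD16. Withdrawal cells, also on 3 arrays, were resistant cells kept for another 20 cycles without either agent. LIM1215 and Caco2, established human colorectal cancer lines as well, were sampled in the same 3 states with 3 arrays each. The labels do not say that the 3 arrays of a group came from separate cultures, so p-values here measure the spread between these arrays, which may be technical. All groups were cell cultures, and the labels describe 1 selected population per line.

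Cetuximab is an antibody against the epidermal growth factor receptor, EGFR. A natural killer cell that binds the antibody's tail through CD16 releases perforin and granzymes onto the coated tumour cell, a process called antibody-dependent cellular cytotoxicity. Natural killer cells also weigh activating ligands on a target against HLA class I molecules, which inhibit them, and they secrete interferon gamma, a cytokine known to raise antigen presentation genes in the cells it reaches.

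Values are log2 intensities as deposited, and a change is resistant minus parental on that scale. A gene was called higher or lower at an adjusted p under 0.05 (limma on the 9 SW48 arrays, two-sided, Benjamini-Hochberg over all 17687 genes), and "rose" and "fell" are used for called genes alone. Background is each array's 95th percentile of its negative control probe sets, which lay at 6.56 to 6.93 on parental, 7.02 to 7.17 on resistant and 6.67 to 7.24 on withdrawal arrays. Where a gene's mean in 1 group lay under it, the fold is written as "at least", the brighter group's mean against background in the dimmer one. Arrays of one SW48 group correlated at 0.995 to 0.996 and resistant with parental arrays at 0.983 to 0.984.

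Some epithelial markers were present in both groups. EPCAM, the epithelial adhesion molecule, stood at 15.37 ± 0.0749 (SD, n = 3) in parental and 15.34 ± 0.116 in resistant cells, and CDH1, which encodes E-cadherin, at 12.98 ± 0.0204 and 12.83 ± 0.0678. Of 15 measured colorectal epithelial markers, 7 were above background in parental and 6 in resistant cells, and 2 rose and 4 fell (median -0.151, from -3.77 to 2.24). The mean over the 15 was 7.87 to 8.06 on parental and 7.50 to 7.63 on resistant arrays, which did not overlap. Markers of the effector cells moved with the resistant group: 21 of 35 measured natural killer cell markers were called higher and 2 lower. These are 60% and 5.71%, against 9.70% higher and 10.7% lower among all genes. The mean over the 35 was 2.94 to 3.10 on parental, 4.34 to 4.58 on resistant and 3.04 to 3.12 on withdrawal arrays. In resistant cells 5 of them were above background, namely NCAM1, CCL5, GZMA, CD96 and IL2RG. NCAM1 and IL2RG were over background on all 3 resistant arrays, and CCL5, GZMA and CD96 on 1 of 3. NCAM1, the CD56 antigen of natural killer cells, read 3.48, 3.54 and 3.77 on the parental arrays and 7.75, 7.56 and 7.91 on the resistant ones. GZMA, which encodes granzyme A, read 2.57, 2.89 and 2.36 against 8.27, 6.52 and 6.68. For NCAM1 all 3 resistant arrays thus lay above all 3 parental arrays. FCGR3A, which encodes CD16, was near background in both groups (2.39 and 4.34), and PTPRC, which encodes the leukocyte antigen CD45, was above background in parental cells and fell, from 7.72 to 5.87. Of 20 T, B and myeloid markers 1, the lysosomal CD68, was above background in resistant cells (6.53 to 9.13), and the means of all 12 fibroblast and endothelial markers were under background. The part of these markers in the results that follow was not tested.

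Resistant and parental SW48 cells differed at 3607 of 17687 genes (20.4%), with 1716 higher (9.70%) and 1891 lower (10.7%). The change reached 2-fold in 1251 of them, 581 higher and 670 lower, and 36 genes were higher and 28 lower by 4 log2 units or more. The median change over all genes was -0.00206. The 3 resistant arrays lay wholly above or below the 3 parental arrays for 6279 genes (35.5%). This is a larger share than were called, so groups that do not overlap add little to a gene's call. Many genes were dim: 8874 were near background in both groups, and 570 of these were among the called. Of the 8813 genes above background in at least 1 group 3037 were called, a larger share than the 20.4% of all genes. A gene list made mostly of such genes can therefore exceed 20.4% without standing out. With every value under background set to background, 787 genes were called with a change of 2-fold or more, against 1251.

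**Figure D1:**
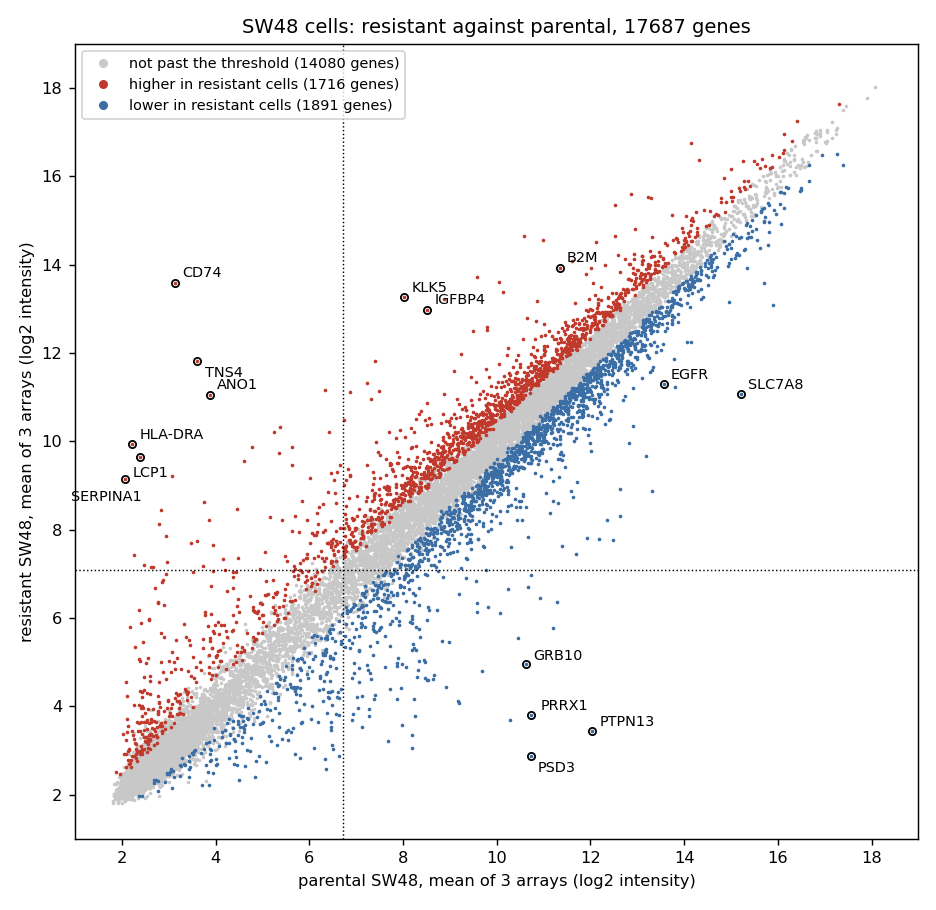
Mean log2 intensity of each of the 17687 genes in parental SW48 cells (x axis, 3 arrays) against resistant SW48 cells (y axis, 3 arrays), with called genes coloured by direction and dotted lines at background. CD74 at 3.14 and 13.59 lies farthest above the diagonal and PTPN13 at 12.04 and 3.44 farthest below it.

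The target of the antibody fell. EGFR, the receptor that cetuximab binds, read 13.37, 13.64 and 13.67 on the parental arrays and 11.22, 11.19 and 11.49 on the resistant ones. The groups did not overlap, and every resistant array was more than 1 log2 unit under every parental one. The change was -2.26 ± 0.131 (SE), a 4.8-fold lower intensity (adjusted p = 2.22e-06, limma). Of 11 measured ErbB receptors and ligands, 1 rose and 3 fell (36.4% against 20.4% of all genes), with a median of -0.0899. TGFA, an EGFR ligand, rose from 8.91 ± 0.104 to 10.46 ± 0.228 (SD, n = 3), by 1.55 ± 0.136. BTC, which encodes the ligand betacellulin, fell from 7.86 to near background. ERBB4, near background in both groups (4.13 and 3.42), was called lower in 6 of 12 alternative analyses. With its dim values raised to background, ERBB4 was at 0.36, which is the difference in background itself, and did not pass (adjusted p = 0.0601, limma). ERBB3 (12.10 and 12.29) and the ligands EREG (14.32 and 14.06) and HBEGF (8.21 and 8.56) did not pass the test.

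Among 18 measured adaptors and restraints of EGFR signalling 4 rose and 5 fell (50% against 20.4% of all genes). PTPN13, a large non-receptor tyrosine phosphatase, had the largest fall of all genes: 12.21, 11.68 and 12.22 on parental arrays against 3.25, 3.41 and 3.65 on resistant ones, at least 31-fold lower (-8.60 ± 0.169, adjusted p = 3.32e-09, limma). GRB10, an adaptor that dampens insulin and growth factor receptors, read 10.95, 10.47 and 10.44 against 5.03, 4.77 and 5.08, at least 11.6-fold lower. Both genes were thus under background on every resistant array and well over it on every parental array. GAB2, a docking protein downstream of receptor kinases, went the other way, from 7.42 ± 0.254 to 9.98 ± 0.0842, 5.88-fold. The ubiquitin ligase CBLB (-0.81) and LRIG1 (-0.62), which both restrain EGFR, fell, and ERRFI1, a feedback inhibitor of the EGFR kinase, rose (0.73 ± 0.108). The core adaptor GRB2 was at 13.38 in both groups.

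Genes known to follow ERK activity were split, with 5 higher and 5 lower of 19 (52.6% against 20.4% of all genes, median -0.0489). SPRY1, a feedback inhibitor of receptor kinase signalling, fell from 10.31 ± 0.0841 to 7.61 ± 0.373, and ETV5, an ETS factor, fell by 1.70. DUSP6, the ERK phosphatase, fell by 0.59, and the growth regulator MYC fell by 0.67. DUSP5 and DUSP4, nuclear phosphatases of ERK, rose by 2.29 ± 0.287 and 0.90 ± 0.109, as did the cyclin gene CCND1 (0.51).

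Some other growth factor receptors rose. Of 22 measured, 6 were higher and 1 lower (31.8% against 20.4% of all genes, median 0.123). MET, the receptor of hepatocyte growth factor, read 12.21, 11.84 and 12.27 on parental and 14.61, 14.52 and 14.41 on resistant arrays, 5.31-fold higher (2.41 ± 0.143, adjusted p = 2.51e-06, limma). AXL, the receptor of GAS6, read 7.52, 7.99 and 8.03 against 10.18, 10.27 and 9.76, 4.67-fold higher. In neither gene did the groups overlap. ROR1, a WNT5A receptor, rose by 1.64 ± 0.118 to 14.21, and the collagen receptor DDR1 by 0.79. Of 19 genes of the insulin and IGF axis 4 rose and 2 fell (31.6% against 20.4% of all genes). The binding protein IGFBP4 went from 8.52 ± 0.0667 to 12.98 ± 0.0395, 22.1-fold, the insulin receptor substrate IRS2 rose by 2.13 ± 0.162, and PIK3R1, the regulatory subunit of PI3 kinase, fell by 0.96. Of 19 genes of ephrins and their Eph receptors, which signal at cell contacts, 2 rose and 3 fell (26.3% against 20.4% of all genes, median 0.069). The falls included the ligands EFNA5 (10.92 to 6.45, at least 14.3-fold lower) and EFNB2 (12.83 to 9.97, 7.26-fold lower).

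Genes of antigen presentation and of the interferon response rose. CD74, the invariant chain that escorts HLA class II molecules, had the largest rise of all: 3.08, 2.61 and 3.74 on the parental arrays and 13.76, 13.56 and 13.45 on the resistant ones, at least 117-fold (10.44 ± 0.25, adjusted p = 6.26e-09, limma). PSMB9, an interferon-induced catalytic subunit of the immunoproteasome, read 5.03, 5.84 and 4.86 against 10.21, 10.22 and 10.20, at least 11.2-fold. IRF9, the DNA-binding partner of the STAT proteins in type I interferon signalling, read 5.46, 5.12 and 5.51 against 9.66, 9.58 and 9.94, at least 8.03-fold. All 3 went from under background on every parental array to over it on every resistant array. Their promoters are shown because such genes are known to be read through short interferon elements: the 250 bases before the annotated start, 5′ to 3′ on the gene's strand, from RefSeq on GRCh38.p14, at chr5:150412911-150413160 (minus strand, CD74), chr6:32853942-32854191 (plus strand, PSMB9) and chr14:24161015-24161264 (plus strand, IRF9). Capitals mark every match to GAAANNGAA, the core of the interferon-stimulated response element, TTCNNNGAA, the gamma-activated site, and CCAAT, on either strand.
CD74: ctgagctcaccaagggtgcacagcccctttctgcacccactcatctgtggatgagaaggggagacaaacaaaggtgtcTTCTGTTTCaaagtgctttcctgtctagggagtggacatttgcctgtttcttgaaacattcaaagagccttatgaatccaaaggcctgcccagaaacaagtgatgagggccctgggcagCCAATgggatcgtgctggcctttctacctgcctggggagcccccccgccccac
PSMB9: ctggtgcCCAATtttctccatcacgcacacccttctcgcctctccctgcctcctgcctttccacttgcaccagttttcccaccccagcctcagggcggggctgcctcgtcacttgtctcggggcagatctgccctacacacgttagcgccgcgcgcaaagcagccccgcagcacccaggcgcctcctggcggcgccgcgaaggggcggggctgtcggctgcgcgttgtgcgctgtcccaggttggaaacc
IRF9: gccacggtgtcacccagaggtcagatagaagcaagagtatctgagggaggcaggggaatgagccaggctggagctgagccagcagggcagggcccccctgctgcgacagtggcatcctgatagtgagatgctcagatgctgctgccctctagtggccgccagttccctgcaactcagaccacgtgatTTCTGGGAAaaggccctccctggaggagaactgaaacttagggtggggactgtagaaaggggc
CD74 holds TTCTGTTTC, which is GAAANNGAA read on the other strand, 172 bases before the start, and a CCAAT 53 bases before it. PSMB9 holds CCAAT 243 bases before the start, and IRF9 holds TTCTGGGAA 63 bases before it. The other letters of these windows match none of the 3 patterns.

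Across promoters of 300 bases (250 before and 50 after the start), which RefSeq gave for 14250 of the tested genes, GAAANNGAA occurred in 6.93% of all tested genes, 7.27% of those called higher (103 of 1416) and 5.79% of those called lower (92 of 1588). Among the 108 called genes higher by 2 log2 units or more, a bound chosen after the values were seen, the share was 25% (27 genes), against 4.55% (6 of 132) among those lower by as much. In the type I interferon list it was 67.5% (27 of 40), and in all 27305 promoters that RefSeq gave it was 8.29%. TTCNNNGAA was found in 6.93% of tested genes, 6.5% of those called higher and 12% of those higher by 2 log2 units or more. CCAAT was found in 36.4%, 36.1% and 31.5% of the same groups and in 76.9% (10 of 13) of the class II list. GAAANNGAA and TTCNNNGAA can overlap, and the 3 shares are descriptions of sequence.

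Most measured genes of HLA class I presentation rose: 12 of 18 were higher and the other 6 did not pass the test, with a median of 1.16 and 8 of the 12 past the threshold in every alternative analysis. B2M, the light chain shared by all class I molecules, read 11.31, 11.39 and 11.32 on parental and 14.08, 13.79 and 13.91 on resistant arrays, 6.02-fold higher (2.59 ± 0.129, adjusted p = 8.53e-07, limma). TAPBP, tapasin, which holds class I molecules at the peptide transporter, rose from 11.60 ± 0.16 to 14.09 ± 0.0694. HLA-E, the ligand of the inhibitory receptor NKG2A, read 11.85, 11.70 and 11.45 against 13.06, 13.18 and 13.16. In each of these 3 genes every resistant array lay above every parental array, as for 17.2% of all genes. HLA-C (2.14 ± 0.154) and HLA-F (2.15 ± 0.193) rose too, although class I heavy chains share long stretches of sequence and their probes may read one another. The peptide-trimming ERAP1 and ERAP2 rose by 1.62 and 2.34, and the peptide transporter subunit TAP1 by 2.03 from near background. Of 8 proteasome genes measured, 5 rose: PSMB8 (1.99 ± 0.193), PSMB9, PSMB10 (2.17 ± 0.37), the activator subunit PSME1 (1.98 ± 0.254) and, in 9 of 13 alternatives, the constitutive PSMB7. The constitutive subunits PSMB5 (11.74 and 11.72) and PSMB6 (10.95 and 11.23) did not pass the test.

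In HLA class II presentation 8 of 16 measured members rose and 2 fell (median 0.712), but 2 of the 8, CD74 and HLA-DRA, were above background. HLA-DRA, the class II alpha chain, read 2.45, 2.03 and 2.18 on parental and 10.11, 10.00 and 9.68 on resistant arrays, at least 9.22-fold higher. CIITA, the master activator of class II genes, was called higher but read 2.42 and 4.32, near background in both groups. RFXANK, a subunit of the complex that binds class II promoters, fell by 0.74 ± 0.168.

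Of 46 type I interferon response genes 32 were called higher and the other 14 did not pass the test (median 1.41). Above background were 16 of the 32, and 13 passed in every alternative. In the fit on all 27 arrays 23 were called higher. MX1, a GTPase that blocks viruses, read 6.11, 6.84 and 6.43 on parental and 9.17, 9.75 and 8.97 on resistant arrays, at least 5.73-fold higher. IFITM1, a membrane protein that restricts viral entry, read 7.14, 7.86 and 6.94 against 11.35, 11.01 and 10.54, 12.6-fold higher. The groups did not overlap in either gene. SAMD9, an antiviral translation inhibitor, went from 2.78 ± 0.233 to 8.14 ± 0.17, at least 2.68-fold, IFITM3 from 13.22 to 15.53, and the ISG15-conjugating enzyme UBE2L6 from 10.55 to 12.31. The RNA sensor TLR3 rose by 1.64 ± 0.215. Of 23 interferon gamma response genes 14 were higher and the other 9 did not pass (median 0.868), with 6 of the 14 above background. APOL1 and APOL6, apolipoprotein L genes, and GBP3, a guanylate-binding protein gene, rose from under background, at least 5.59-fold, 12.1-fold and 8.87-fold. Beside these lists, the 35 natural killer cell markers had a median of 0.828, and 5 were above background in resistant cells. With dim values raised to background the medians of the type I interferon, interferon gamma, class II and natural killer cell lists were each 0.358. This is the amount by which background itself was higher on the resistant arrays. The median of the class I list was then 0.93.

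Of 26 receptors, kinases, STAT, IRF and SOCS genes that carry the interferon signal 6 rose and 2 fell (30.8% against 20.4% of all genes, median 0.289). IRF1, an interferon-induced transcription factor, rose from 7.91 ± 0.0902 to 9.64 ± 0.194 with no overlap of arrays, and IRF2 rose by 1.03. STAT3 rose by 0.77 ± 0.141 and the receptor chain IFNGR2 by 0.52 ± 0.118, whereas the kinase JAK1 fell by 0.94 ± 0.125. The type I receptor chains IFNAR1 (10.37 and 10.29) and IFNAR2 (11.36 and 11.70) did not pass the test.

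**Figure D2:**
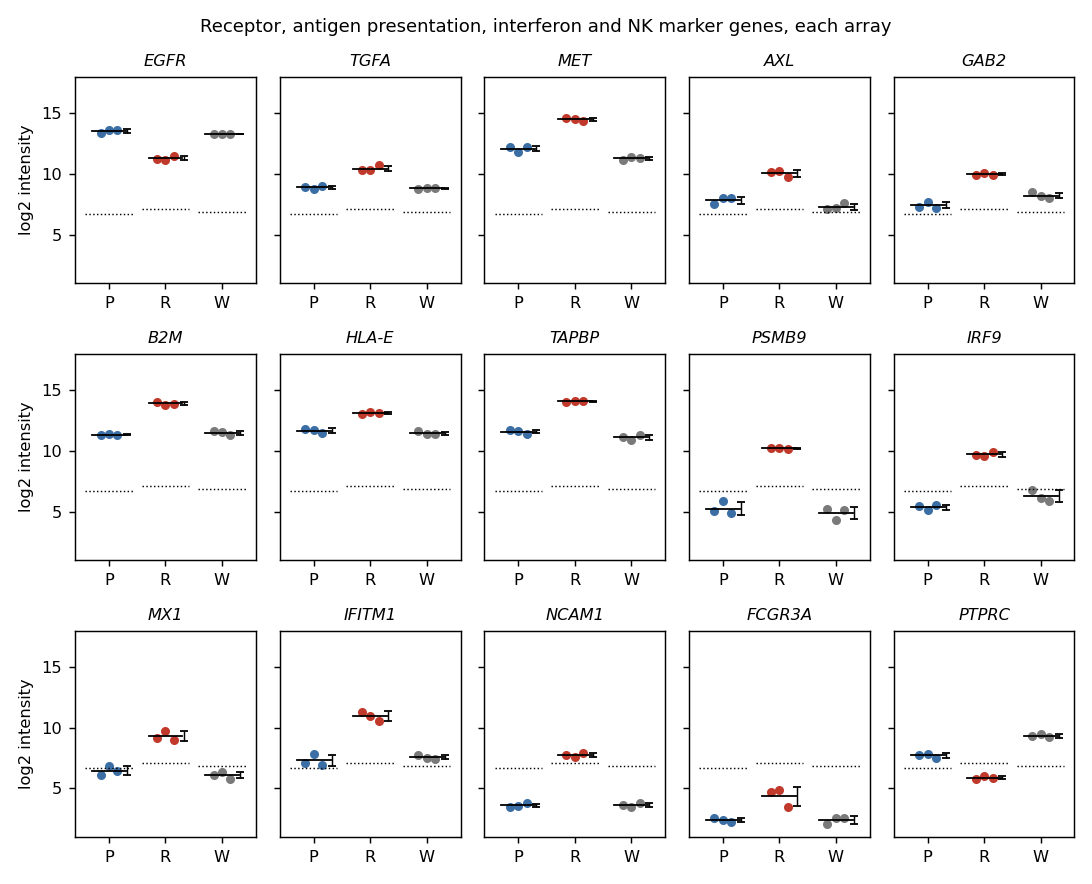
Log2 intensity of 15 genes on each SW48 array (points) for parental, resistant and withdrawal cells, with the mean and SD of each group of 3 and background as dotted lines. EGFR falls from 13.56 to 11.30 while MET, B2M, HLA-E and IFITM1 rise, NCAM1 reaches 7.74 in resistant cells, and FCGR3A stays under background in all 3 groups.

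Genes called in the same direction also lay side by side on chromosomes. Along the RefSeq order of 17245 protein-coding genes there were 3 runs of at least 5 neighbours, all higher. One was APOBEC3B to APOBEC3H, 6 cytidine deaminase genes with changes of 0.841 to 3.47. APOBEC3B, APOBEC3D, APOBEC3G and APOBEC3H were near background in both groups, and APOBEC3G (2.40 and 5.88) had the largest change. APOBEC3C and APOBEC3F reached 8.64 and 9.59 in resistant cells. The next run was BTN3A2 to BTN2A1, 5 butyrophilin genes, with changes of 0.793 to 2.99. Some members of this family are known for presenting phosphoantigen signals to gamma delta T cells. The last was TAP2 to HLA-DMA, with PSMB8, TAP1 and PSMB9 between them, with changes of 0.525 to 4.97. BTN3A2 itself read 9.17, 9.88 and 9.44 on parental and 12.50, 12.55 and 12.44 on resistant arrays, with no overlap, 7.97-fold higher. Some members of these families, such as the BTN3A genes, are close copies whose probes may read one another, so their values are uncertain. The APOBEC3 run was not complete with a filter on dim genes or with dim values raised to background. The butyrophilin run was not complete without resistant replicate 1. The run from TAP2 to HLA-DMA was complete with quantile normalization, with an intensity trend and with the replicate block, and not in the other 10 alternatives.

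Ligands that natural killer cells read on a target moved in both directions. Among 21 activating ligands 5 rose and 4 fell (42.9% against 20.4% of all genes, median 0.209). ULBP1, a ligand of the activating receptor NKG2D, read 10.65, 10.58 and 10.66 on parental and 8.45, 8.34 and 8.73 on resistant arrays, 4.36-fold lower (-2.12 ± 0.149, adjusted p = 7.70e-06, limma). ULBP3, of the same family, fell by 1.02 ± 0.133, PVR, a ligand of DNAM-1, changed by -1.02 ± 0.123, and NCR3LG1, the NKp30 ligand B7-H6, by -0.62 ± 0.12. In all 4 genes every resistant array lay under every parental array, as for 18.3% of all genes. NECTIN2, another DNAM-1 ligand, rose by 1.29 ± 0.152 and the NKG2D ligand MICB by 1.66 ± 0.141, while MICA (9.47 and 9.52) and ULBP2 (8.82 and 9.06) did not pass. Of 23 inhibitory ligands 8 rose and 3 fell (47.8% against 20.4% of all genes, median 0.408). LGALS9, galectin-9, a ligand of TIM-3, read 2.91, 2.94 and 2.99 against 7.83, 7.63 and 8.12, at least 2.19-fold higher. LGALS1 rose from 2.97 to 7.26, over background on 1 of 3 resistant arrays, and NT5E, the adenosine-forming CD73, by 0.98. CEACAM5, the carcinoembryonic antigen, fell from 8.33 to near background and LGALS3, galectin-3, from 14.05 to 12.25. CD274, which encodes PD-L1, was near background in both groups (5.45 and 5.99) and was called higher in 1 of 12 alternatives.

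Genes through which a target cell dies include CASP8 and FAS. CASP8, the initiator caspase of death receptors, read 11.13, 11.25 and 11.23 on parental and 9.38, 8.97 and 8.99 on resistant arrays, 4.27-fold lower with no overlap. FAS, the death receptor, rose from 7.72 ± 0.156 to 9.51 ± 0.0188, and TNFRSF10B, a TRAIL receptor, fell by 0.67. Of 17 death receptor and TNF receptor family genes 1 rose and 3 fell, and of 19 caspases and gasdermins 1 rose and 3 fell, shares of 23.5% and 21.1% that were near the 20.4% of all genes. In the BCL2 family 3 of 23 rose and 6 fell (39.1% against 20.4% of all genes). The pore-forming BAX rose by 1.05 ± 0.169 and the survival gene BCL2L1 by 0.71 ± 0.117, and BID, which granzyme B and caspase-8 cleave, fell by 0.67 ± 0.152. Of 17 serpin and granzyme-defence genes 3 rose and 3 fell (35.3% against 20.4% of all genes). SERPINB9, the inhibitor of granzyme B, went from 9.56 to 10.27, a rise of 0.71 ± 0.123. SERPINA1, alpha-1-antitrypsin, went from 2.07 ± 0.128 to 9.15 ± 0.199, at least 5.38-fold higher, with every resistant array over background. SERPINB5, maspin, fell from 13.78 to 11.86, and SERPINB8 from 11.41 to 9.69.

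Cytokine genes rose at 7 and fell at 2 of 31 measured (29% against 20.4% of all genes). LIF, a cytokine of the interleukin-6 family, read 7.44, 6.21 and 6.96 against 11.03, 11.04 and 11.29, 19-fold higher with no overlap. CCL5, a chemokine that natural killer cells make in quantity and that is also in their marker list, read 2.47, 2.53 and 2.44 against 6.86, 6.84 and 7.88. The colony-stimulating factor CSF1 rose by 0.89 and the chemokine CXCL16 by 0.79, and the cytokine IL18 fell by 1.64 ± 0.174. TNFAIP3, the feedback inhibitor A20 of NF-kappaB, rose by 1.65 ± 0.142 and NFKBIA by 0.60 ± 0.112, in a list of 15 with 3 higher and 3 lower.

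Adhesion genes were among the largest changes. TNS4, a tensin that binds integrin tails and MET, read 3.71, 3.76 and 3.37 on parental and 11.95, 11.86 and 11.64 on resistant arrays, at least 34.1-fold higher (8.20 ± 0.196, adjusted p = 6.26e-09, limma). Every parental array was under background and every resistant array far over it. Of 22 focal adhesion genes 7 rose and 2 fell (median 0.239): the scaffold PXN rose by 1.32 ± 0.116, the kinase ILK by 1.19 ± 0.157 and vinculin, VCL, by 1.09 ± 0.155, and TNS3 fell by 1.22 ± 0.149. Integrins rose at 6 and fell at 2 of 23 (34.8% against 20.4% of all genes). ITGA3, the alpha chain of a laminin receptor, read 7.29, 7.41 and 7.51 against 11.92, 11.93 and 11.58, 21.2-fold higher without overlap. Its partner chain ITGB1 rose by 1.07 ± 0.114 and ITGA6 by 0.88 ± 0.159. NPNT, nephronectin, a matrix ligand of integrins, fell from 10.29 ± 0.0838 to 3.70 ± 0.679, at least 9.27-fold. Matrix proteases and inhibitors rose at 8 and fell at 1 of 24, with urokinase PLAU (1.79 ± 0.126) and its receptor PLAUR (2.01 ± 0.135) among them, both also high in withdrawal cells at 11.65 and 10.37.

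Keratins and surface genes of the epithelium changed in both directions. Among 13 keratins 5 rose and 3 fell, all 8 in every alternative. KRT5, a basal keratin, read 3.04, 3.01 and 2.45 against 8.60, 8.85 and 7.87, at least 3.29-fold higher, while its usual partner KRT14 fell from 10.25 to 6.66. KRT18 rose from 13.29 to 15.52, by 2.24 ± 0.11, and KRT19 fell by 1.27 ± 0.174. Kallikreins, secreted serine proteases of one gene cluster, rose at 5 and fell at 1 of 15. KLK5 read 8.16, 8.05 and 7.84 against 13.16, 13.33 and 13.29, 37.9-fold higher, KLK6 rose by 2.74 ± 0.114 and KLK10 by 2.05 ± 0.11. The tight junction gene CLDN4 went from 3.97, 3.49 and 3.78 to 8.58, 8.51 and 8.80. KRT5, KLK5 and CLDN4 were among the 20 largest rises, which were chosen for groups that do not overlap. Of 24 tetraspanins and relatives 7 rose and 2 fell, with TSPAN1 (9.57 to 13.73), TM4SF1 (4.16 to 7.33) and the metastasis suppressor CD82 (7.73 to 9.47) among those that rose. Cadherins and desmosome genes fell at 6 and rose at 1 of 25 (28% against 20.4% of all genes): desmoplakin, DSP, fell by 0.70 and DSC2 by 0.84, and periplakin, PPL, rose by 2.45. Of 31 S100 and epidermal genes 9 rose and 2 fell, among them S100A2 (2.82 ± 0.165) and the iron-siderophore binder LCN2, which went from 8.87 ± 0.245 to 13.23 ± 0.227.

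Intestinal transcription factors that changed were lower. Of 20 gut transcription factors 7 fell and the other 13 did not pass the test (median -0.218). SOX4 fell from 13.80 to 11.23, the pioneer factor FOXA1 from 9.72 to 7.61 and HNF4G from 10.40 to 9.44. CDX2, the caudal factor that sets intestinal fate, read 12.88, 12.98 and 13.01 on parental and 11.72, 11.99 and 12.01 on resistant arrays, 2.07-fold lower with no overlap. Of 30 enterocyte genes 1, the brush border peptidase DPP4, was called, falling from 11.40 to 7.63. Homeobox genes fell at 10 and rose at 2 of 24: MEIS2, a HOX cofactor, fell by 1.86 ± 0.152, and HOXC10 fell by 1.52 ± 0.15. HOXB5 read 6.67, 6.64 and 6.88 against 10.55, 10.68 and 10.23, 13.5-fold higher, and HOXB2 rose by 2.36 ± 0.195, whereas HOXB6 (9.46 and 9.95) and HOXB7 (9.70 and 10.03) did not pass. PRRX1, a homeobox factor of mesenchyme, read 10.86, 10.64 and 10.70 against 3.77, 3.94 and 3.69, at least 12.6-fold lower. RUNX3, a factor of lymphocytes and gut epithelium, rose from 2.25 ± 0.198 to 7.43 ± 0.66, with 2 of 3 resistant arrays over background.

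WNT genes fell at 8 and rose at 3 of 47 (median -0.0319), and this share of 23.4% was near the 20.4% of all genes. The receptor FZD7 read 12.00, 11.90 and 11.90 on parental and 8.13, 8.02 and 7.31 on resistant arrays, 17.3-fold lower. LGR5, the R-spondin receptor of intestinal stem cells, read 8.02, 8.57 and 8.10 against 4.06, 4.51 and 3.95, at least 2.22-fold lower, and NKD2, a WNT antagonist, fell by 1.71. The groups of FZD7 and LGR5 were fully apart. AXIN2, a feedback target of beta-catenin, was at 14.72 and 14.56 and did not pass. In the Hippo list 6 of 22 rose and 3 fell: the coactivator WWTR1, known as TAZ, went from 4.46 ± 0.266 to 8.46 ± 0.155 and the matricellular target CCN1 from 10.05 ± 0.247 to 13.62 ± 0.038, while YAP1 (12.69 and 12.83) did not pass. Of 32 TGF-beta and BMP genes 4 rose and 5 fell (28.1% against 20.4% of all genes), with PMEPA1, a SMAD-induced inhibitor, at least 3.56-fold lower.

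Amino acid stress genes that changed were lower. Of 25 ATF4 and CHOP targets 15 fell and the other 10 did not pass (median -0.621), 10 of the 15 in every alternative. DDIT4, an inhibitor of mTOR complex 1, read 15.89, 15.95 and 15.86 on parental and 13.11, 13.12 and 13.07 on resistant arrays, 6.95-fold lower (-2.80 ± 0.108, adjusted p = 1.47e-07, limma). The folate enzyme ALDH1L2 fell from 8.52 to near background (-3.92 ± 0.187), the factor ATF3 from 9.78 to 7.08 (-2.70 ± 0.283) and CHAC1, which degrades glutathione, from 15.71 to 13.58 (-2.12 ± 0.116). ATF4 itself, at 14.04 and 13.70, did not pass the test. Of 31 amino acid transporters and tRNA synthetases 13 fell and 1 rose (median -0.286). SLC7A8, a neutral amino acid exchanger, read 15.15, 15.10 and 15.37 against 10.91, 11.23 and 11.07, 17.6-fold lower, and the cystine importer SLC7A11 fell by 1.80 ± 0.118. In the unfolded protein response 7 of 21 fell and 4 rose, with the factor XBP1 (-1.15 ± 0.131) and the sensor ATF6 (-1.09 ± 0.115) among the falls.

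Growth and energy genes were called in both directions. Of 22 p53 targets 11 rose and 3 fell (median 0.537), with CDKN1A, the cell cycle inhibitor p21, up by 0.92 ± 0.116, CCNG1 by 1.36 ± 0.12 and SESN2, which is also an ATF4 target, down by 1.27 ± 0.104. Of 23 oxidative phosphorylation genes 11 rose and 1 fell (median 0.391), such as the succinate dehydrogenase subunit SDHA (1.33 ± 0.171) and COX7A2 of complex IV (1.28 ± 0.169). Replication genes rose at 8 and fell at 1 of 27, led by the cyclin CCNE1 (1.16 ± 0.246), and mitosis genes fell at 11 and rose at 1 of 30, such as the phosphatase CDC25B (-1.27 ± 0.143), the kinetochore gene NDC80 (-1.09 ± 0.134) and the kinase AURKA (-0.90 ± 0.128). The proliferation marker MKI67 (13.96 and 14.22) did not pass. VEGFA, the vascular growth factor, fell by 1.00 ± 0.1 in a hypoxia and glycolysis list with 6 higher and 5 lower of 25.

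**Figure D3:**
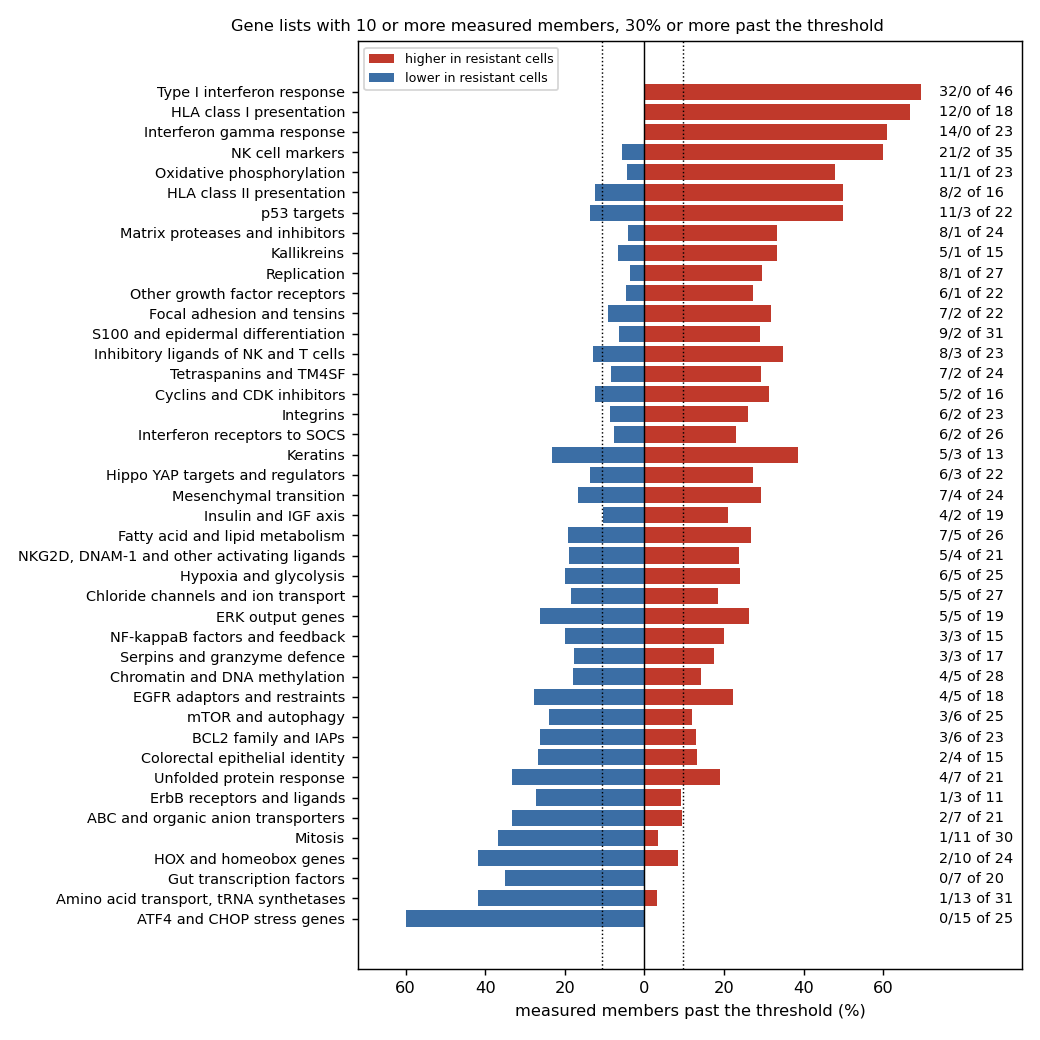
Percent of measured members called higher (right, red) and lower (left, blue) in resistant SW48 cells for the gene lists with 10 or more measured members and 30% or more called, with dotted lines at the shares over all genes, 9.70% and 10.7%. Type I interferon and HLA class I genes stand at the top with 32 of 46 and 12 of 18 higher, and ATF4 and CHOP stress genes at the bottom with 15 of 25 lower.

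Several of the largest changes lay outside these groups. LCP1, L-plastin, an actin bundler typical of leukocytes, rose from 2.38 ± 0.161 to 9.65 ± 0.291, at least 7.61-fold, ANO1, a calcium-activated chloride channel, from 3.87 ± 0.698 to 11.06 ± 0.241, at least 20.2-fold, and MYL9, a myosin light chain, from 4.77 ± 0.59 to 9.88 ± 0.331. EDN1, which encodes the peptide endothelin-1, read 6.30, 6.61 and 6.08 against 11.44, 11.17 and 10.90, and the glucose transporter SLC2A3 read 5.25, 5.27 and 3.31 against 9.63, 9.45 and 9.57. The groups are apart in each of them by the rule that chose the largest changes. Among the falls, PSD3, an exchange factor for ARF6, read 10.69, 10.63 and 10.83 against 2.38, 2.53 and 3.72, at least 12.4-fold lower. CMKLR2, a chemerin receptor, fell from 11.20 ± 0.0591 to 5.78 ± 0.738, the nuclear receptor corepressor NRIP1 from 9.20 to 4.07 and the liver-type anion transporter SLCO1B1 from 8.18 to 3.06. Its close paralog SLCO1B3 fell from 12.64 to 8.31, and probes of the pair may read one another. CNTNAP2, a neuronal adhesion protein, fell from 11.28 to 6.37, the stress-response gene NIBAN1 from 12.48 to 7.76, FAM83B, an activator of EGFR signalling, from 13.32 to 8.88, and the transcription factor CREB5 from 12.19 to 7.78. The remaining genes among the 20 largest falls were PBDC1, MOB3B, KANSL1L, the protease PRSS12, the protocadherin PCDH19 and the latrophilin ADGRL2, with changes of -5.05, -4.90, -4.89, -4.84, -4.49 and -4.44. All 40 of the largest changes, 20 in each direction, passed the threshold in every alternative they were tested in. They were chosen by size among the called genes of these same arrays, so this is no independent check.

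By background alone, 57 genes (0.322%) were switched on, under background on all 3 parental and over it on all 3 resistant arrays, and 204 (1.15%) were switched off. All 57 and 165 of the 204 were also called. The highest levels among those switched on were CD74 (13.59), TNS4 (11.82), EDN1 (11.17), ANO1 (11.06) and APOL6 (10.32). Among those switched off the highest parental levels were PTPN13 (12.04), CNTNAP2 (11.28), CMKLR2 (11.20), EFNA5 (10.92) and PRRX1 (10.74).

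**Figure D4:**
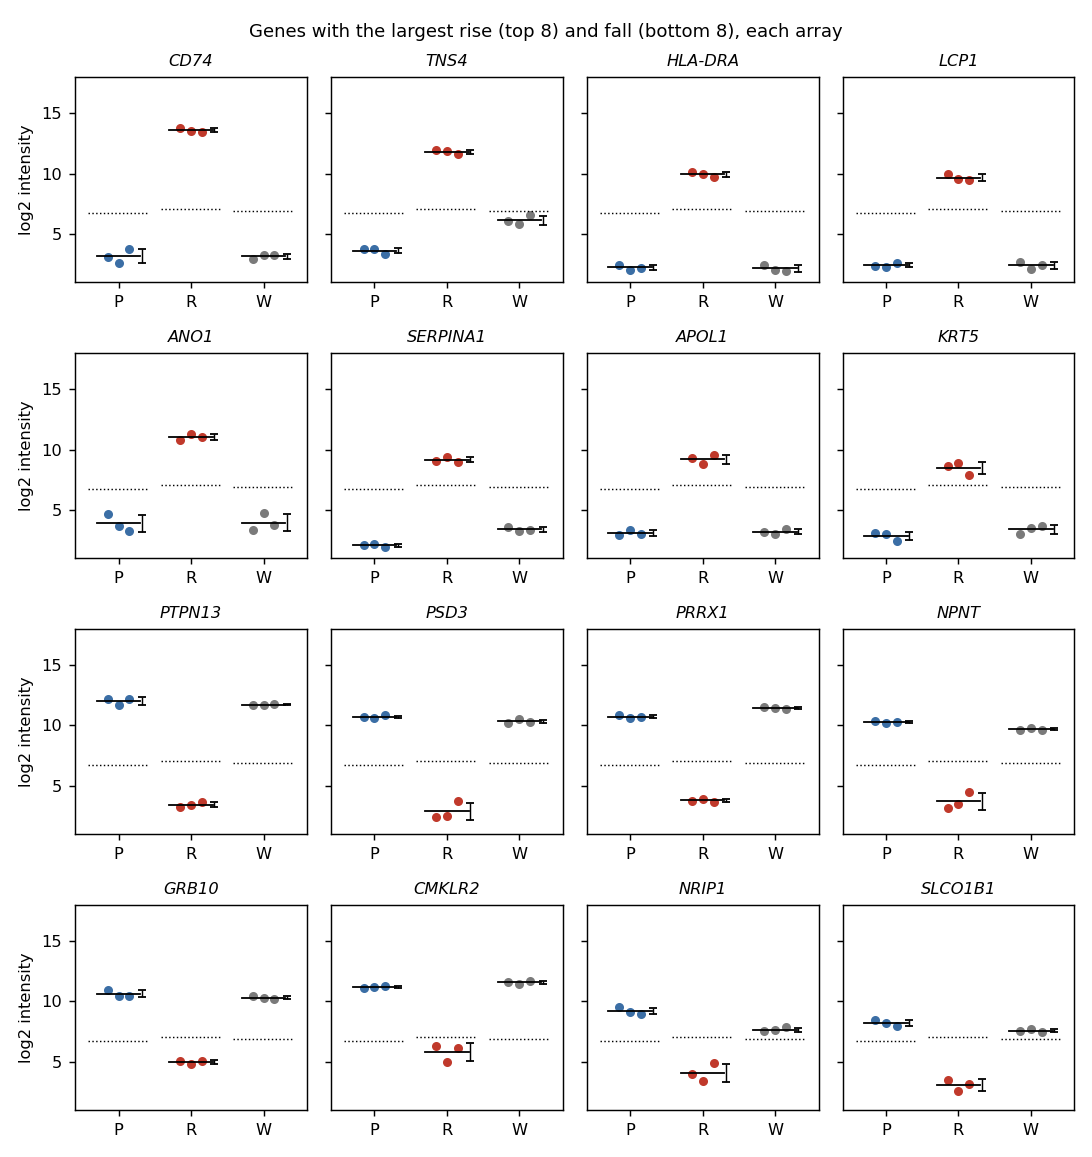
Log2 intensity of the 8 genes with the largest rise and the 8 with the largest fall on each parental, resistant and withdrawal SW48 array (points), with group mean and SD of 3 arrays and background as dotted lines. The resistant arrays are apart from the parental ones in every panel because the genes were chosen so. The withdrawal arrays of CD74 (mean 3.14) and PTPN13 (mean 11.74) lie near the parental level.

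Withdrawal cells gave the levels after the treatment ended. Comparisons with them use the same parental or resistant arrays as the main comparison, so levels are given side by side. Against parental cells 380 genes (2.15%) were called and against resistant cells 3537 (20.0%). Of the called genes switched on in resistant cells, 40 of 57 were under background on all 3 withdrawal arrays, and of the 165 switched off, 99 were over it on all 3. EGFR was at 13.56, 11.30 and 13.29 in parental, resistant and withdrawal cells, B2M at 11.34, 13.93 and 11.49, and NCAM1 at 3.60, 7.74 and 3.63. MET (12.11, 14.51 and 11.31) and ROR1 (12.58, 14.21 and 11.92) were called lower in withdrawal than in parental cells, with adjusted p of 0.0238 and 0.0241 (limma). Some genes stayed away from the parental level. SLC2A3 read 8.96, 8.93 and 9.41 in withdrawal cells, above parental by 4.49 (adjusted p = 9.65e-04, limma). LCN2 was at 10.87, CCN1 at 11.60 and FZD7 at 10.08, each between its parental and resistant levels and called against parental. ULBP1 was also between them, at 9.62. TNS4 was called higher than in parental cells, but its 6.15 was under background there too. PTPRC was at 9.34 in withdrawal cells, above both the parental 7.72 and the resistant 5.87.

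The SW48 change was set against the same contrast in the other lines in a fit on all 27 arrays. It differed from the LIM1215 change at 3232 genes (18.3%) and from the Caco2 change at 4575 (25.9%). Parental LIM1215 replicate 3 correlated at 0.987 with the other 2 arrays of its group, which correlated at 0.997. Without it 3812 genes differed from LIM1215. The EGFR change was lower in SW48 than in LIM1215 (11.53 and 11.40 in parental and resistant cells, difference -2.13 ± 0.192, adjusted p = 2.15e-08, limma) and than in Caco2 (9.76 and 8.57, difference -1.07 ± 0.192, adjusted p = 1.69e-04, limma). The MET change was above that in LIM1215 (difference 2.77 ± 0.152) and in Caco2 (difference 2.14 ± 0.152). The first is larger than the rise in SW48 itself, so MET did not rise in LIM1215. For CASP8 the differences were -2.12 and -2.93. Both were larger in size than its fall in SW48, so it did not fall in either other line. AXL rose by 2.08 in Caco2, and its difference from that line did not pass the test (0.14 ± 0.424).

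TNS4 had the largest difference from LIM1215: it rose by 8.20 in SW48, fell by 2.31 in LIM1215 and changed by 1.18 in Caco2, whose levels of 4.78 and 5.97 were near background. The difference was 10.51 ± 0.325 from LIM1215 and 7.02 ± 0.325 from Caco2. PTPN13 was at 11.80 and 11.85 in LIM1215 and NPNT at 13.03 and 13.05, against their loss in SW48, with differences of -8.65 and -6.61. ANO1, already at 9.77 and 8.79 in parental LIM1215 and Caco2, differed by 7.47 and 8.45. HLA-DRA rose in SW48 and, by 10.47, in LIM1215, but was near background in Caco2 in both groups (2.37 and 2.16), a difference of 7.92 ± 0.31 from Caco2. CD74 rose in all 3 lines, from parental means under background in each (3.14 in SW48, 5.01 in LIM1215 and 6.67 in Caco2), so the sizes of its rises are not ordered here. With dim values raised to background, TNS4 differed by 7.40 from LIM1215 and 4.97 from Caco2, ANO1 by 4.61 and 5.21, PTPN13 and NPNT by -5.00 and -3.23 from LIM1215, and HLA-DRA by 3.08 from Caco2. HLA-E rose by 1.47, 1.48 and 2.06 in SW48, LIM1215 and Caco2, and neither difference passed the test (-0.01 ± 0.342 and -0.59 ± 0.342). The natural killer cell markers were higher in the other resistant lines: 17 of 35 were above background in LIM1215 and 12 in Caco2, with array means of 7.16 to 7.48 and 6.38 to 6.65, against 4.34 to 4.58 in SW48. PTPRC went from 2.77 to 8.45 in LIM1215 and from 2.45 to 9.25 in Caco2 while it fell in SW48. Their part in these differences was not tested.

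**Figure D5:**
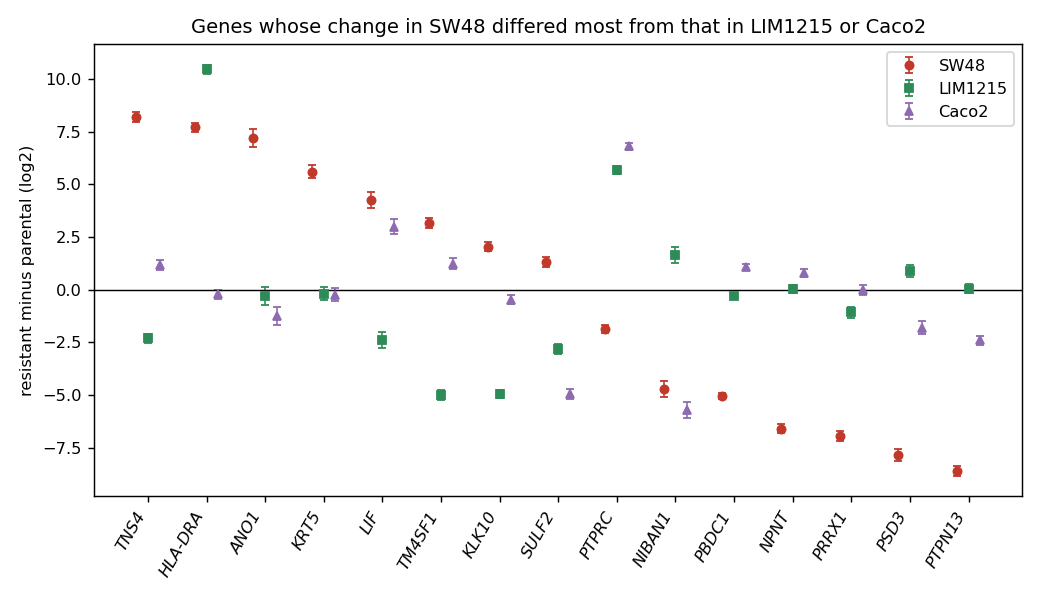
Resistant minus parental change in log2 units, with SE from the fit on 27 arrays, for 15 genes in SW48, LIM1215 and Caco2. TNS4 changes by 8.20 in SW48 and -2.31 in LIM1215, and PTPRC by -1.85 in SW48 against 5.68 in LIM1215.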

How the data were processed

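Total RNA from cell pellets (250 ng per sample) was hybridised to Affymetrix arrays of 1 colour, as the labels' protocols state. The authors deposited log2 intensities of 24351 probe sets on 27 arrays. The background correction, the normalization and any scan batch are not stated there. Of the 21448 transcript probe sets 17709 carried 1 gene symbol and 3739 were not named and not analysed here. The brightest probe set was kept for 20 genes with several, which left 17687 genes.

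Group means were fitted with limma 3.58.1 (R 4.3.3) on the 9 SW48 arrays (6 residual and 3.76 prior degrees of freedom), two-sided. P-values were adjusted by Benjamini-Hochberg across the 17687 genes, with calls at an adjusted p under 0.05. Differences between lines came from 27 arrays (18 and 4.12). On simulated data for SW48 resistant minus parental over 17687 genes, 57% of 100 changes of 1 log2 unit and 94% of 100 changes of 2 were recovered. No other genes were changed there, far fewer than the 3607 called in the data. The recovered shares therefore need not hold for this comparison. Figures were drawn with matplotlib 3.10.9 in Python 3.11.15. The precision is limited by 3 arrays per group.

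The comparison, the 65 gene lists and the rules were chosen with earlier results of these data known. Named were the 20 largest called changes per direction whose arrays do not overlap and whose higher group is above background, list members, 5 genes per direction for each line difference, the ends of runs of neighbours, and the 10 highest levels among genes switched on and off. Alternatives were all 27 or 6 arrays, quantile normalization, a filter on dim genes, an intensity trend with a robust prior, values under background set to it, a replicate block, and leaving out each array. The labels state no pairing by replicate number. Deviations of same-numbered parental and resistant arrays correlated at 0.0171, -0.0159 and -0.0046. Parental replicate 1 correlated best with the resistant array of its own number, and replicates 2 and 3 did not. Taken over all genes, many of them dim, these values cannot exclude a pairing or a shared batch.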

Additional observations from a re-analysis of the deposited data

Results flagged for a closer look

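The genes below were each tested for a difference between the change in SW48 and the change in another line (limma on 27 arrays, Benjamini-Hochberg over 17687 genes). Against LIM1215 the SW48 change was higher by 10.51 for the tensin TNS4, 8.16 for the surface protein TM4SF1, 7.47 for the chloride channel ANO1, 7.0 for the kallikrein KLK10 and 6.64 for the cytokine LIF. TM4SF1 fell from 12.14 to 7.14 in LIM1215, KLK10 from 13.10 to 8.15 and LIF from 12.60 to 10.21, while all 3 rose in SW48. The difference was -8.73 for PSD3, -8.65 for the phosphatase PTPN13, -7.52 for PTPRC, which encodes CD45, -6.61 for the matrix gene NPNT and -6.35 for NIBAN1. Without parental LIM1215 replicate 3, the array that stood apart, these 10 differences kept their sign, from 10.29 for TNS4 to -9.08 for PSD3. Many of these levels lie near background in 1 line: with values under background set to it, TNS4 was at 7.40, TM4SF1 at 5.03, ANO1 at 4.61, PSD3 at -4.53, PTPN13 at -5.00, PTPRC at -1.74 and NPNT at -3.23.

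Against Caco2 the SW48 change was higher by 8.45 for ANO1, 7.92 for the class II gene HLA-DRA, 7.02 for TNS4, 6.24 for the sulfatase SULF2 and 5.85 for the keratin KRT5. SULF2 rose by 1.30 in SW48 and went from 12.46 to 7.52 in Caco2. The difference was -8.65 for PTPRC, -7.38 for NPNT, -6.93 for the homeobox gene PRRX1, -6.21 for PTPN13 and -6.11 for PBDC1. With values under background set to it, HLA-DRA was at 3.08, KRT5 at 1.59, TNS4 at 4.97, ANO1 at 5.21, PTPRC at -2.14, NPNT at -4.0, PRRX1 at -3.78 and PBDC1 at -3.15. Leaving out any 1 array of the lines compared, each of the 20 differences kept its sign, and its adjusted p stayed at or under 1.09e-07 (limma), the highest, for NIBAN1. These 20 were chosen by size on the same arrays, so the kept signs are no independent check.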

How the results depend on the processing

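Across the 13 alternatives the number of called genes ranged from 2844 without a parental array to 4274 with an intensity trend, against 3607, and 1896 genes were called in every one (865 higher, 1031 lower). With values under background set to it, 787 genes were called at 2-fold or more against 1251. The number of runs of neighbouring genes, 3, was 6 with all 27 arrays, 7 with an intensity trend, 1 with values under background set to it, and 1 to 3 when an array was left out (1 without resistant replicate 1). The cause was not tested. With the replicate block 3387 genes were called, 3208 of them shared, and differences from LIM1215 and Caco2 numbered 3058 and 4402. The labels do not say that shared replicate numbers pair the arrays, so the block stands here alone. Leaving out 1 array gave 2850 to 3812 differences from LIM1215 (most without parental LIM1215 replicate 3), 4147 to 4366 from Caco2, 60 to 72 genes switched on and 214 to 287 switched off, an alternative for the switched genes that was chosen after seeing the data.

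Genes named that lost their call in at least 1 alternative included TAP2, HLA-DMA, PSMB7, BTN2A1, CD274, ERBB4, CIITA, FCGR3A, APOBEC3B and APOBEC3H. The list is not complete: APOBEC3D and APOBEC3G, called and near background in both groups, belong to the 570 such genes counted below. ERBB4 was at 0.36 and did not pass once its dim values were raised to background. The medians of the ErbB and gut transcription factor lists, -0.0899 and -0.218, were then also 0.358, the difference in background. The same value was reached by many other lists. Among them were WNT (-0.0319 before), other growth factor receptors (0.123), activating ligands (0.209) and focal adhesion (0.239). The ERK median became 0.0191 and that of the ATF4 and CHOP list -0.422, while the p53 median stayed at 0.537. EREG, ATF4, HOXB6 and IFNAR2, which did not pass, passed in 1 to 3 alternatives each with the same direction. Levels near background limit what can be read: of the 570 called genes dim in both groups, 3 passed with values under background set to it.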

Other observations

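Axon guidance genes, which direct cell and neurite movement, were called in both directions. Of 36 measured semaphorin and guidance genes 5 rose and 5 fell, against 9.70% and 10.7% of all genes. ROBO1, the receptor of SLIT ligands, fell from 8.46 to near background (-3.82 ± 0.193), NRP2, a semaphorin and VEGF co-receptor, from 7.87 to near background (-2.95 ± 0.176), and the secreted SEMA3C changed by -1.78 ± 0.224. The 5 that rose were near background in both groups or were not called in every alternative. In a list of 21 neural adhesion genes 3 rose and 2 fell (23.8% against 20.4% of all genes), and CADM4, a cell adhesion molecule of epithelia and myelin, rose from 10.85 to 13.17. Of 27 ion channel and transport genes 5 rose and 5 fell (37% against 20.4% of all genes). BEST1, a calcium-gated chloride channel, fell from 8.28 to near background, in the direction opposite to ANO1. KCNE3, a potassium channel subunit of crypts, fell from 10.44 to 8.22 and SLC12A2, the sodium-potassium-chloride importer, from 11.71 to 10.46, while the sodium pump subunit ATP1B1 rose by 1.70 ± 0.117.

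Lipid genes moved in both directions, with 7 of 26 higher and 5 lower (46.2% against 20.4% of all genes). The desaturase SCD (16.06 to 14.93), the fatty acid receptor CD36 (17.38 to 16.25) and the lipogenic factor SREBF1 (12.27 to 11.20) fell. CPT1A, which admits fatty acids to mitochondria, rose by 0.70 ± 0.117 and the oxidation enzyme ACADVL by 0.90 ± 0.141, while the synthase FASN (11.10 and 11.26) did not pass the test. In a chromatin list 4 of 28 rose and 5 fell (32.1% against 20.4% of all genes). HDAC4 (11.53 to 10.52), SMARCA2 (9.69 to 8.58) and the polycomb methyltransferase EZH2 (13.29 to 12.68) were among the falls. Of 20 DNA repair genes 2 rose and 3 fell (25% against 20.4% of all genes). As 19 of the 20 were above background in at least 1 group, where more genes were called, this list does not stand out. MSH3, a mismatch recognition subunit, fell from 10.57 to 9.40 and the ligase LIG1 rose from 7.64 to 9.24. In the complement list 1 of 17 rose and 3 fell, a share of 23.5% near the 20.4% of all genes, with CD55, which shields cells from complement, going from 15.39 to 14.64. ALDH3A1, an aldehyde dehydrogenase, was at 10.67, 7.83 and 4.99 in parental, resistant and withdrawal cells.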
